A study of Mus musculus with 8 samples.

Results

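Ly6a, Ly6c1, Ly6c2, Ly6d and Ly6e are 5 genes of the mouse Ly6 family, picked by symbol from the 32285 genes counted in every library. They were chosen because earlier results of these data had shown some of them at very different levels in culture and in tissue, so their levels are given here as a description and carry no p-value. The libraries are 8, all from colon of C57BL/6 mice, with 2 of stroma and 2 of epithelium from assembloids, 2 from organoids and 2 from tissue. Assembloids are organoids joined with cultured primary stromal cells in Matrigel and kept on a shaker in medium free of Wnt surrogate, CHIR-99021, R-spondin 1 and noggin. Organoids are epithelium alone in full medium, which holds these factors, and tissue epithelium is crypts taken straight from the colon, so the culture, the medium and the stroma changed together and cannot be told apart. The stromal cells were expanded in culture before assembly, the cells were sorted, those of the stroma being described as EpCAM-negative, and each library is a mixture of cell types.

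Ly6 proteins are small surface proteins built on a fold of short loops held by disulfide bonds, and most are tied to the membrane by a glycosylphosphatidylinositol (GPI) anchor. Ly6a, also called Sca-1, is known as a marker of blood stem cells and, in the gut, of epithelium that regenerates after injury. Several genes of the family are induced by interferons, and Ly6c1 and Ly6c2 together encode the Ly6C antigen of monocytes and endothelium. Ly6d marks early B cells and stratified epithelium, and Ly6e is a widely expressed member known for restricting the entry of coronaviruses.

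All 5 genes lie on chromosome 15 of GRCm38 within 350 kb (GENCODE M21). Ly6d is at chr15:74762056-74763620, Ly6e at chr15:74955051-74959905, Ly6a at chr15:74994877-74998031, Ly6c1 at chr15:75044018-75048830 and Ly6c2 at chr15:75108158-75111970. Ly6e is read from the plus strand and the other 4 from the minus strand. Each is annotated as protein coding. Ly6c1 and Ly6c2 are the pair most easily confused by a read. The last 400 bases of their longest coding transcripts were 94.8% identical, and 35 of 311 windows of 90 bases in that stretch of Ly6c1 also occurred in a Ly6c2 transcript. Reads from those windows cannot be assigned to either gene, so a low count of Ly6c2 beside a high count of Ly6c1 has to be read with that limit. Ly6a was 82.3% identical to Ly6c1 over the same stretch and shared none of the windows with it.

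The pair is also shown by the sequence before its starts, because these near-identical transcripts were counted at very different levels. The 250 bases before the outermost RefSeq start (GRCm38.p6) cover chr15:75048838-75049087 for Ly6c1 and chr15:75111972-75112221 for Ly6c2, and both are printed on the minus strand, 5′ to 3′. Capitals mark a match to TATAAA, TTCNNNGAA (a STAT type motif) or GAAA followed by any 2 bases and GAAA (an interferon-response type motif), searched on both strands.
Ly6c1: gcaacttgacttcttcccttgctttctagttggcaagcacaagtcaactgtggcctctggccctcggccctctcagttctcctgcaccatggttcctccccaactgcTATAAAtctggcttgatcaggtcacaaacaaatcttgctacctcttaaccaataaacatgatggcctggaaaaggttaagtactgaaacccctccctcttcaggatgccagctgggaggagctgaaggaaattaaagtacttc
Ly6c2: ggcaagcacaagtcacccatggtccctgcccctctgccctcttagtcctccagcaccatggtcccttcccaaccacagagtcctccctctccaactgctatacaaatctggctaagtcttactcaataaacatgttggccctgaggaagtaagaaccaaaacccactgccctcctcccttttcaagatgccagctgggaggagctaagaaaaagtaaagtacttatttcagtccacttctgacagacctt
A local alignment of these stretches was 73.0% identical over 233 columns. TATAAA occurred once, in Ly6c1 at 143 bases before the start, and was found in 12.3% of 32536 promoters of that length. Neither stretch held TTCNNNGAA, which 7.04% of promoters held, or the interferon-response type motif, which 2.98% held. These matches are descriptions of the letters and were not tied to binding of any factor. Entries for the promoters of Ly6a, Ly6d and Ly6e were not used here.

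The cells used numbered 9020 and 9048 in stroma, 25967 and 6869 in assembloid epithelium, 4872 and 8034 in organoids and 4689 and 4307 in tissue, with 36952156 to 187583982 UMIs per library. A UMI is a tag that counts 1 captured RNA molecule. Between 25.4% and 96.1% of a library's barcodes passed the limits of 500 genes and 10% mitochondrial counts, and the tissue libraries were lowest at 38.7% and 25.4%. No pair of libraries shared more than 141 barcodes or 0.980% of the smaller one. In the assembloid epithelium 3443 and 853 cells that passed a fibroblast or immune gate were left out, and the 6 fibroblast markers still summed to 153 and 33.2 CPM there, that is UMIs in each 1000000 UMIs of the library, against 0.0541 or less in organoids and tissue. The epithelial list of 8 markers was at 6039 to 12568 CPM in the epithelial libraries and at 484 and 106 in stroma. Stroma and epithelium were counted by different versions of Cell Ranger, so their levels are set side by side without a test.

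Tissue epithelium held Ly6a at 147 and 168 CPM, assembloid epithelium at 728 and 948, and organoids at 1459.6 and 1220.3. The order of the epithelial groups was therefore tissue, assembloid, organoid, and no library overlapped another group. The ratio of means was 5.31 between assembloids and tissue, with 4.33 to 6.44 over the pairs of libraries, and 8.49 between organoids and tissue, with 7.25 to 9.91. Organoids lay 1.60 times above assembloids, with a lowest pair at 1.29. The means were 158 ± 14.8, 838 ± 156 and 1340 ± 169 CPM (SD, n = 2 libraries each). Ly6a in stroma lay between tissue and assembloid epithelium, at 567 and 453 CPM.

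Ly6c1 followed the same order with wider steps. It was counted at 5.02 and 4.03 CPM in tissue, at 175 and 163 in assembloid epithelium and at 366 and 333 in organoids, and at 55.3 and 28.4 in stroma. Organoids and assembloids lay 77.2 and 37.4 times above tissue by their means. The tissue value rested on few cells. The 10 cells with most of it held 127 of the 236 UMIs in tissue library 1 and 67 of the 149 in library 2, and without them the level was 2.34 and 2.24 CPM. The richest cells held 65 and 36 UMIs. Those 10 cells had a median of 29724.5 and 18140 UMIs in all, against 3374 and 3702 for the library. At least 2 markers of the stem list were found in 6 and 4 of them, and at least 2 of the cycling list in 7 and 5. At least 2 of the colonocyte list were found in 8 and 10, and at least 2 of the goblet and of the epithelial list in all 10 of both. None had 2 markers of the endothelial or immune list. Other cells of such depth were not counted for these markers, so no cell class is read from them.

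Ly6c2 was close to absent by count. Stroma held 4 and 5 UMIs in all, assembloid epithelium 28 and 16, organoids 38 and 32, and both tissue libraries none, where a count of 0 allows up to 0.0638 and 0.0812 CPM. The highest level, 0.344 CPM in organoid library 2, compares with 333 for Ly6c1 in that library. No fold against tissue is given.

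Ly6d separated assembloids from both other epithelia. It was counted at 62.3 and 53.6 CPM in assembloid epithelium, at 2.44 and 2.29 in organoids, and at 7 and 4 UMIs in the tissue cells used, or 0.149 and 0.108 CPM. The mean in organoids was 0.0408 times that in assembloids and 18.4 times that in tissue, and no library of one group overlapped another. With at most 5% mitochondrial counts the fitted log2 difference was 8.20 in place of 9.18 for assembloids over tissue and 3.49 in place of 4.42 for organoids over tissue. In organoids 10 cells held 33.0% and 32.4% of its UMIs. In stroma Ly6d was at 85.8 and 8.25 CPM, so the stromal libraries lay on either side of the assembloid epithelium.

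Ly6e varied least among the epithelia. Tissue stood at 335 and 317 CPM, organoids at 266 and 280, assembloid epithelium at 207 and 247 and stroma at 455 and 597. The epithelial libraries did not overlap between groups, with tissue highest, but the steps were small and depended on the scaling. Scaling by TMM factors moved the median of all genes by 0.39 (log2) between assembloids and tissue, and by 0.24 and 0.15 in the other pairs. On that scale Ly6e differed by -0.14 (log2) between assembloids and tissue, by -0.01 between organoids and tissue and by 0.12 between organoids and assembloids. With all barcodes kept, the first of these was 0.32 and the second 0.45, so its direction against tissue changed with the cells used. The other members kept their direction on either scale, with Ly6a at 2.79 and 3.35 (log2) over tissue in assembloids and organoids, Ly6c1 at 5.62 and 6.52 and Ly6d at 9.18 and 4.42.

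**Figure D1:**
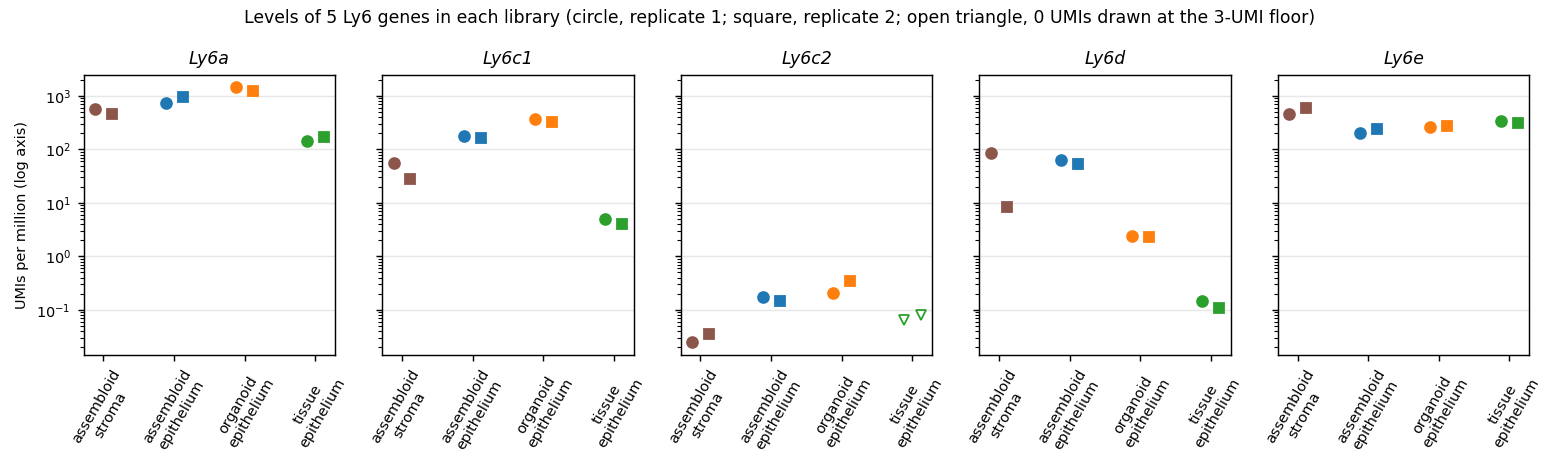
Levels of the 5 genes in CPM on a log axis, by group, with a circle for replicate 1 and a square for replicate 2. Ly6a and Ly6c1 climb from tissue to assembloids to organoids. Ly6d is highest in assembloid epithelium among the epithelia and splits the stromal libraries at 85.8 and 8.25. Ly6e varies least among the epithelia and is higher in stroma, at 455 and 597. Ly6c2 stays at or under 0.344 with open triangles for the 2 tissue libraries at 0.

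The 4 members other than Ly6e were higher in both cultures than in tissue in every library, a pattern that 30.2% of the 19234 genes tested showed between assembloids and tissue and 32.5% between organoids and tissue. Ly6e was lower in every library of both cultures before TMM scaling, as were 52.6% and 42.6% of genes. Between organoids and assembloids Ly6a, Ly6c1, Ly6c2 and Ly6e were higher in both organoid libraries, as were 40.4% of genes, and Ly6d was lower, as were 33.5%. Since the members were picked for these levels, nothing is read from these counts.

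To compare how many cells carried each gene, every cell was thinned to 2000 UMIs and shallower cells were left out, 32 to 5935 in a library. Ly6a was then found in 16.6% and 18.6% of tissue cells, 66.6% and 58.8% of assembloid cells and 82.2% and 73.8% of organoid cells. Without thinning the shares were 26.5% and 31.2%, 79.9% and 84.3%, and 98.1% and 77.5%. In tissue the goblet-gated cells showed 3.80% and 5.60% and the colonocyte-gated cells 42.1% and 40.7%. What part of these tissue shares is stray RNA was not tested. In assembloids the immune-gated cells, which also hold the epithelial list, showed 48.8% and 19.004% at a median depth of 3754 and 13617 UMIs, against 4695 and 15461 for ungated cells, and the part of stray RNA in the assembloid shares was not tested. Ly6a was thus found in a minority of tissue cells and in most cells of the cultured epithelia, while in stroma the shares were 31.2% and 36.5%.

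Ly6c1 was found in 0.410% and 0.614% of thinned tissue cells, 26.5% and 18.7% of assembloid cells and 38.1% and 34.3% of organoid cells. Ly6d reached 9.37% and 6.66% in assembloids and 0.546% and 0.412% in organoids, and it was found in 0 of 2440 tissue cells, with an exact binomial upper bound of 0.151%, and in 1 of 2769. That bound limits the cells with a UMI at this depth and not the cells that express the gene. Immune-gated cells of the assembloid libraries showed Ly6c1 in 19.5% and 5.43%, Ly6d in 6.29% and 0.452% and Ly6e in 33.3% and 36.7%. Ly6e was carried by 30.8% to 39.1% of the cells of an epithelial library, a range that holds the shares of the immune-gated cells. In cells with at least 5000 UMIs, thinned to that depth, the members were mostly carried together in the cultures. A UMI of Ly6c1 was found in 62.4% and 59.0% of organoid cells with Ly6a and in 15.1% and 20% of those without. In assembloids the same shares were 51.7% and 40.2% against 24.2% and 16.6%. Ly6e was found in 68.0% and 67.0% of organoid cells with Ly6a against 49.8% and 48.5% of the others, and in 58.2% and 56.7% against 41.1% and 40.1% in assembloids. Of the other pairs given for the cultures, Ly6c1 with Ly6e in both and Ly6d with Ly6a or Ly6c1 in assembloids ran the same way in each library. Tissue ran the other way, with Ly6e in 44.6% and 46.3% of cells with Ly6a and in 65.3% and 68.4% of those without. In assembloids Ly6e was found in 54.8% and 54.3% of cells with Ly6d against 56.2% and 53.3% of cells lacking it. What part cell state or stray RNA has in this was not tested.

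Cell classes were then gated on marker lists that hold none of the 5 genes, in cells of at least 2000 UMIs. A class is a range of marker content and not a cell type, and free RNA, doublets and mixed states are within it. Doublets were not called. A cell that passed the gates of more than 1 class was set aside, and cells that passed none are called ungated. The counts per class are small for some, with 23 goblet-gated cells in each organoid library against 428 and 344 in assembloids and 658 and 804 in tissue.

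Ly6a in tissue belonged to the colonocyte gate, the mature absorptive cells of the colon surface. Colonocyte-gated cells stood at 387 and 403 CPM, cycling cells at 106 and 171, ungated cells at 65.8 and 78.5, stem-gated cells at 10.0 and 28.5, goblet-gated cells at 17.4 and 24.8 and enteroendocrine cells at 6.52 and 8.50. The stem-gated values rest on 10 and 16 UMIs and the enteroendocrine ones on 3 and 5. The colonocyte gate held 77.5% and 77.6% of the gene's UMIs in cells of at least 2000 UMIs, and 30.3% and 33.1% of all UMIs. Thinned to 2000 UMIs, however, cycling cells showed Ly6a in 5.71% and 7.76% and ungated cells in 9.14% and 13.0%, so no order is read between these classes.

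In assembloids the colonocyte and goblet levels lay side by side. Colonocyte-gated cells stood at 997 and 1015 CPM and goblet-gated cells, the mucus-secreting lineage, at 968 and 1314, with ungated cells at 796 and 998. The ungated cells held 68.9% and 70.1% of the gene's UMIs in cells of at least 2000 UMIs, and 61.5% and 62.6% of all UMIs. Cycling cells were lower at 556 and 683, and enteroendocrine cells, the hormone-secreting lineage, were at 470 and 354. Immune-gated cells of the same libraries showed 366 and 157 CPM of Ly6a, and also 5571 and 2770 of the epithelial list. They are thus no clean measure of stray RNA, and its part in the goblet levels was not tested.

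Organoids put Ly6a elsewhere again. Cycling cells stood at 1530 and 1232 CPM and ungated cells at 1522 and 1508, while stem-gated cells that passed no cycling gate were at 689 and 804 and goblet-gated cells at 466 and 473. Stem-gated cells lay below ungated ones in both organoid and both tissue libraries, and the one assembloid value, 828 against 796, rests on 20 cells.

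**Figure D2:**
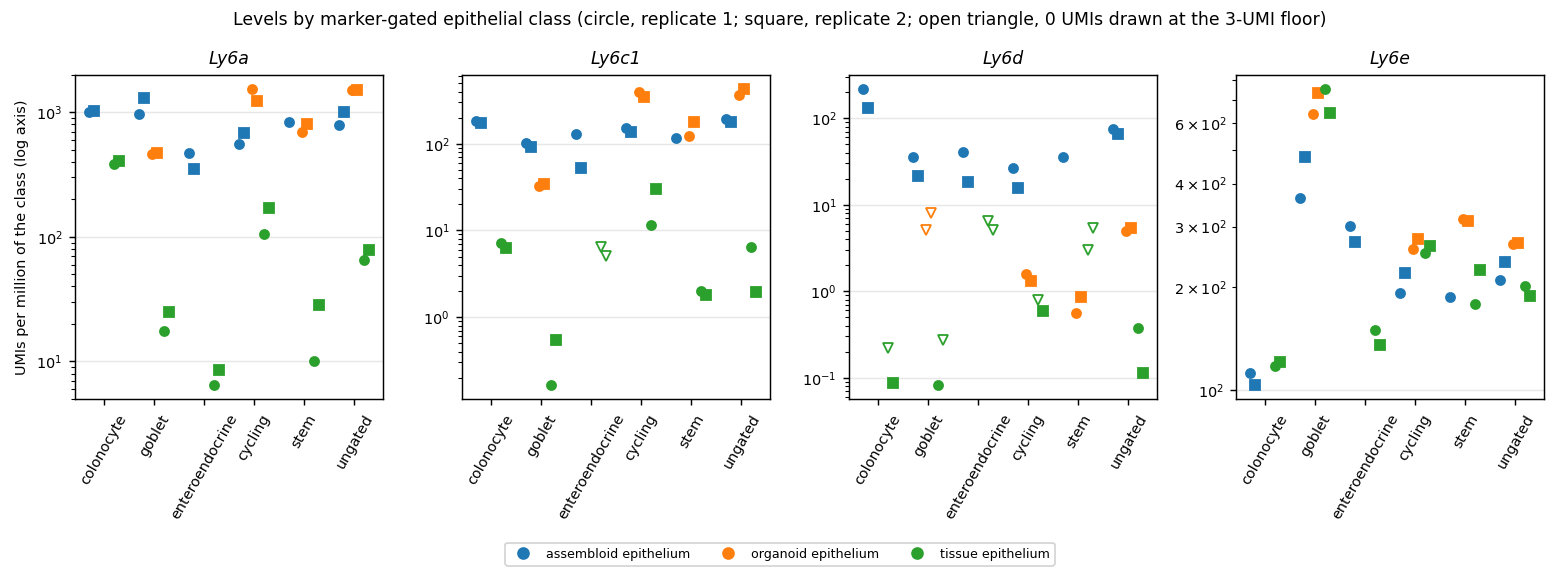
Levels of 4 members in marker-gated classes of the epithelial libraries, in CPM of the class on log axes, with 1 point per library and open triangles for classes with 0 UMIs. Ly6a is lower in goblet than in colonocyte cells of tissue, 17.4 and 24.8 against 387 and 403, with both classes near 1000 or above it in assembloids, while Ly6e is highest in goblet-gated cells of all 3 groups.

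Ly6c1 shared the low values of goblet cells. In organoids it stood at 396 and 342 CPM in cycling cells, 122 and 176 in stem-gated cells and 32.3 and 34.6 in goblet-gated cells. In assembloids colonocyte-gated cells stood at 183 and 172, cycling cells at 150 and 138 and goblet-gated cells at 102 and 92.5, closer together than the organoid classes. With a gate of 2 times the level, assembloid enteroendocrine cells were at 112 and 21.5, on 21 and 10 UMIs. Goblet-gated cells were then at 91.5 and 75.4. In library 2 they were not the lowest class under either gate. At the first gate, its enteroendocrine cells held 38 UMIs, 0.213% of those of Ly6c1, against 0.613% of all UMIs. Its goblet-gated cells held 4.02% against 6.62%. Tissue classes were at 29.8 or less, and the cycling class, at 11.7 and 29.8, was at 7.34 and 4.94 with a gate of 2 times the level.

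Ly6d in assembloids stood highest per UMI in the colonocyte gate, although most of its UMIs lay elsewhere. Colonocyte-gated cells stood at 216 and 131 CPM, ungated cells at 75.1 and 66.0, goblet-gated cells at 35.2 and 21.6 and cycling cells at 26.3 and 15.7. Colonocyte-gated cells of tissue, which hold more of the colonocyte list, 9032 and 8752 CPM against 4510 and 4561 in assembloids, had 0 and 1 UMI of Ly6d. In assembloids the colonocyte gate held 6.30% and 6.60% of the gene's UMIs in cells of at least 2000 UMIs and the ungated cells 76.97% and 82.98%. Of all UMIs the colonocyte gate held 1.75% and 2.51% and the ungated cells 61.5% and 62.6%.

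Ly6e showed one pattern in all 3 epithelia, highest in the goblet gate and low in the colonocyte gate where that class held enough cells. Goblet-gated cells stood at 753 and 641 CPM in tissue, 638 and 734 in organoids and 363 and 478 in assembloids. Colonocyte-gated cells stood at 118 and 121 in tissue and at 112 and 104 in assembloids, and the 23 tuft-gated cells of tissue library 2 at 103. In assembloids and tissue, the goblet level was above the colonocyte level in each library.

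Cells were also ordered by their content of the colonocyte list, in UMIs per 10000, in place of a single gate. In tissue Ly6a was at 14.3 and 56.6 CPM in cells with 5 to 10, at 30.4 and 35.2 with 10 to 20, at 49.5 and 82.5 with 20 to 30, at 154 and 161 with 30 to 50 and at 501 and 528 with 50 or more. The step lay above 30, in both libraries. In assembloids the range from no list UMI to 50 or more went from 593 and 758 to 943 and 982, and in organoids, where few cells reach 5, the level by bin went from 1570 and 1289 to 495 and 488. Ly6a thus stood higher with more of the colonocyte list in tissue and lower with more of it in organoids.

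Ly6d in assembloids was at 30.5 and 30.5 CPM in cells with no UMI of the list, at 82.7 and 62.8 with 5 to 10, at 210 and 112 with 20 to 30 and at 309 and 191 with 50 or more. The last bin holds 90 and 56 cells. Ly6c1 in assembloids had no such slope, with 156 and 163 at the bottom and 162 and 177 at the top. Ly6e in tissue went from 477 and 505 with 10 to 20 to 107 and 107 with 50 or more.

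**Figure D3:**
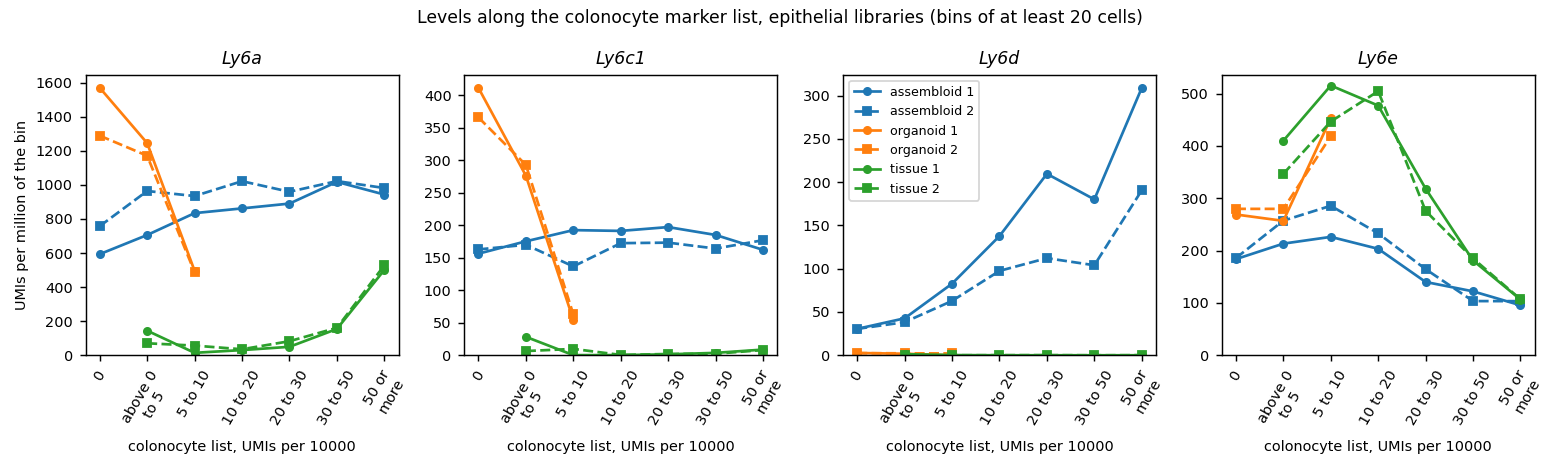
Levels of 4 members, in CPM, against the cells' content of the colonocyte list in UMIs per 10000, with a line per epithelial library. Ly6d climbs in assembloids only among the libraries drawn, from 30.5 to 309 and 191, Ly6a climbs in tissue to 501 and 528, and Ly6e in tissue and assembloids ends near 100 CPM.

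Along the goblet list Ly6e climbed in tissue from 153 and 133 CPM with 10 to 20 list UMIs per 10000 to 825 and 717 with 500 or more, and in assembloids from 198 and 225 under 10 to 442 and 487. Ly6a in tissue went the other way, from 245 and 379 to 17.6 and 25.1. Along the stem list, which includes the Wnt targets Lgr5 and Axin2, Ly6a in organoids was at 1841 and 1627 CPM in cells with none of it and at 619 and 671 with 10 or more per 10000. Ly6c1 in organoids went from 440 and 461 to 112 and 136 over the same bins. In tissue Ly6a was at 248 and 214 with none and at 6.07 and 20.6 with 10 or more, the last resting on 82 and 46 cells.

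In the stroma the members split by class. Squamous-gated cells, which hold Krt5, Krt14 and related keratins of stratified epithelium, stood at 2587 and 1788 CPM for Ly6a, 274 and 136 for Ly6c1, 599 and 984 for Ly6d and 1138 and 1021 for Ly6e. There were 706 of these cells in stroma library 1 and 34 in library 2. They held 76.4% and 89.3% of the Ly6d UMIs in cells of at least 2000 UMIs. Without them Ly6d was at 22.8 and 0.888 CPM, so the stromal libraries still differed. Of the UMIs left in library 1, 1977 lay in 128 cells that passed more than 1 gate and held 6849 CPM of the squamous list, against 1.40 in such cells of library 2. The list was also at 140 CPM in other fibroblasts of library 1 and at 4.399 in those of library 2, and its part in the difference was not tested. Without squamous-gated cells Ly6a was at 319 and 443 in place of 567 and 454, and Ly6c1 at 28.2 and 27.6 in place of 55.2 and 28.4. The order of the stromal libraries in Ly6a turned, and the Ly6c1 levels came together. Ungated stromal cells stayed in these levels. They held 9.60% and 3.49% of the Ly6a UMIs and 12.8% and 5.44% of those of Ly6c1, against 5.13% and 2.45% of all UMIs. Squamous cells also carried 2289 and 2329 CPM of the epithelial list, and 424 and 454 of the fibroblast list, in libraries described as EpCAM-negative cells.

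Among fibroblasts, the cells gated on telocyte markers (Foxl1, Wnt5a, Sox6, Bmp5, Bmp7) stood at 778 and 984 CPM for Ly6a and 91.6 and 135 for Ly6c1. Those gated on trophocyte markers (Cd34, Cd81, Rspo3, Grem1) stood at 153 and 483 for Ly6a and 9.51 and 15.9 for Ly6c1, and other fibroblasts at 252 and 440 and at 18.3 and 21.9. Telocytes are the fibroblasts under the surface epithelium that make BMPs, and trophocytes those under the crypt base that support stem cells. Each library had the telocyte-marker cells higher in both genes. The trophocyte gate had 1696 and 1664 cells within 25% of it. A gate of 2 times the level left 262 and 226 trophocyte-marker cells, with 130 and 519 for Ly6a and 7.34 and 17.8 for Ly6c1. The telocyte gate is low, with 284 and 341 cells within 25% of it. A gate of 2 times the level left 21 and 44 telocyte-marker cells, with 1114 and 1580 for Ly6a and 212 and 219 for Ly6c1. In library 2 this put Ly6c1 above the squamous-gated cells, which were at 120 under the stricter gate. The 150 and 199 cells of the first telocyte gate had 6 and 0 UMIs of Ly6d, and the squamous list was at 81.1 and 5.997 CPM in them. The epithelial list was at 45.8 and 108 CPM in them, against 36.0 and 9.34 in trophocyte-marker cells and 83.5 and 23.4 in other fibroblasts, and its part in the Ly6a and Ly6c1 levels was not tested. Glia-gated cells, 26 and 21 in number, held no UMI of Ly6c1 and 65.4 and 27.9 CPM of Ly6a. The 64 endothelial-gated cells of library 2 had 84.1 of Ly6c1, a gene known in endothelium.

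**Figure D4:**
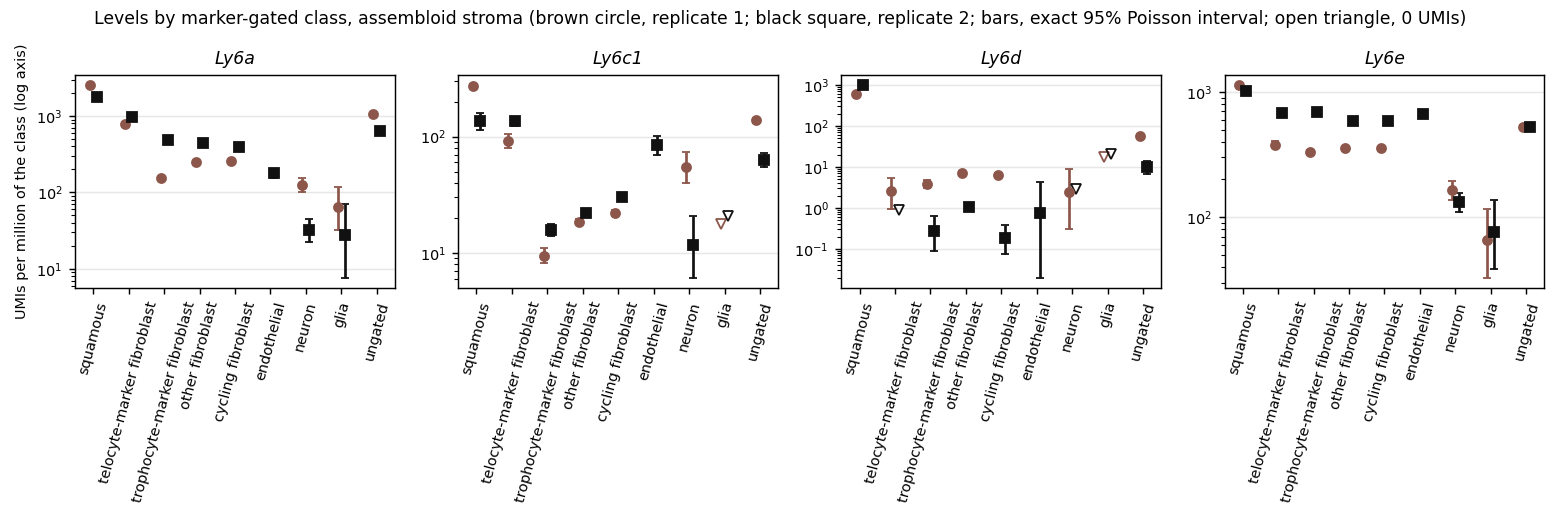
Levels of 4 members by marker-gated class in the 2 stromal libraries, in CPM on log axes, with exact 95% Poisson intervals that cover counting error only. Among the classes drawn, squamous-gated cells are highest for all 4 genes, narrowly so for Ly6c1 in library 2 at 136 beside 135 in telocyte-marker cells, an order that turned with the stricter gate, and telocyte-marker cells lie above trophocyte-marker cells in Ly6a and Ly6c1.

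The genes whose profile over the 8 libraries lay closest were found among 8944 genes with a mean of at least 10 CPM, by the root mean square difference of centred log2 levels. For Ly6a these were Mthfd2 (0.20), Rac3 (0.24) and Shmt2 (0.25), against a median of 1.35 over all candidates. Mthfd2, for instance, was at 8.89 and 10.4 CPM in tissue, while assembloid epithelium held 61.5 and 76.1, organoids 91.2 and 81.0, and stroma 53.9 and 31.6. For Ly6c1 they were Epop (0.55), Psat1 (0.65) and Ak4 (0.76), for Ly6d Sprr1a (0.84), Cav1 (0.91) and Adm (0.94), and for Ly6e Polr3gl (0.09), Galnt11 (0.10) and Ddx50 (0.10). Sprr1a, a gene of the cornified envelope, was at 113 and 9.14 CPM in the stromal libraries and 259 and 329 in assembloid epithelium. A like profile over 8 libraries in 4 groups is a description, and Ly6c2 was too low for it to say anything. The profiles join stroma and epithelium, which were counted by different versions of Cell Ranger. The members themselves were left out of the candidates. Between members, the nearest pair apart from those with Ly6c2 was Ly6a and Ly6c1 at 1.18. The median over all candidates was 1.35 for Ly6a, 2.44 for Ly6c1, 2.63 for Ly6d and 0.754 for Ly6e, so the distances of different members are not on a common footing.

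The other genes of the Ly6 and urokinase receptor (uPAR) family were tested, since they were not used to choose the members. This list, and the interferon and GPI lists below, were still drawn up with earlier results of these data known. Their tests are therefore not independent of those results. Of 37 counted, 26 passed the low-count filter, and edgeR's quasi-likelihood test with Benjamini-Hochberg adjustment called 22 in at least 1 of 3 comparisons, as it did 76.4% of all genes. Between assembloids and tissue 8 rose and 7 fell, with 57.7% called against 49.9% of all genes, and a median of 0.33 (log2) against 0.03. Between organoids and tissue 5 rose and 11 fell (61.5% called, background 47.6%, median -0.99 against 0.06). Between organoids and assembloids 3 rose and 10 fell (50% called, background 53.3%, median -1.36 against -0.01). Over all genes 26.7% rose and 23.2% fell between assembloids and tissue, 24.5% and 23% between organoids and tissue, and 24.5% and 28.8% between organoids and assembloids. The first and second comparisons share the tissue libraries. Without tissue library 1 or 2, 9 and 8 family genes were called in the first, where 26.6% and 28% of all genes were. The split in the first depended on the cells used, with 11 higher and 6 lower with all barcodes and 4 and 7 with at most 5% mitochondrial counts.

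Ly6g, the neutrophil antigen gene next to Ly6c2 on chromosome 15, had the order of Ly6a and Ly6c1. It was at 29.4 and 24.9 CPM in tissue, 211 and 250 in assembloids and 443 and 498 in organoids, with log2 differences over tissue of 3.47 and 4.35 (edgeR adjusted p = 3.34e-05 and 1.1e-05). Organoids also exceeded assembloids (0.88, adjusted p = 0.0111). In stroma it was at 1.47 and 0.773. The ends of its transcripts and those of Ly6a were 81.5% identical with no shared window of 90 bases.

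Ly6m, a neighbour between Ly6d and Ly6e, was highest in assembloids, as Ly6d was. It was at 50.01 and 32.9 CPM in assembloid epithelium, 1.47 and 3.73 in tissue and 0.107 and 0.129 in organoids. The log2 difference between assembloids and tissue was 4.42 (edgeR adjusted p = 0.000173) and between organoids and assembloids -8.62 (adjusted p = 3.73e-05). Unlike Ly6d, which was higher in organoids than in tissue, Ly6m fell there (-4.20, adjusted p = 0.000422).

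Lypd8, a colonic member known to keep flagellated bacteria from the epithelium, fell in culture. Tissue stood at 4580 and 4677 CPM, assembloids at 1294 and 1742 and organoids at 378 and 295. The log2 differences were -1.23 between assembloids and tissue (edgeR adjusted p = 0.0164) and -3.51 between organoids and tissue (adjusted p = 0.000154), and organoids also lay under assembloids (-2.28, adjusted p = 0.00106). Lypd6b fell in both cultures, from 21.7 and 19.8 CPM in tissue to 1.15 and 1.84 in assembloids and 3.28 and 4.20 in organoids, with log2 differences of -3.42 and -2.24 (adjusted p = 3.46e-05 and 0.000151). Cd59a, an inhibitor of complement, fell in organoids against both other groups (-3.43 and -3.49, adjusted p = 0.00456 and 0.00325) at levels under 0.41 CPM.

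Further genes of the family were called on low counts. Ly6g6f had 75 and 104 UMIs in tissue, 3 and 3 in assembloids and 1 and 1 in organoids. Ly6l had 18 and 15 UMIs in tissue, 6 and 3 in assembloids and 3 and 0 in organoids. Psca, a prostate and stomach member, had 0 and 1 UMI in tissue, 201 and 123 in assembloids and 190 and 60 in organoids. Gpihbp1, which carries lipoprotein lipase in capillaries, had 21 and 16 UMIs in assembloids and none in organoids or tissue, while stroma held 33 and 83. Ly6k fell in organoids against tissue (-4.16, edgeR adjusted p = 0.0128), yet its tissue UMIs were 49 and 3.

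Interferon-stimulated genes were tested because several Ly6 genes are known to answer interferon. Of 36 tested, 13 rose and 10 fell between assembloids and tissue (63.9% called, background 49.9%, median 0.43 log2). Between organoids and tissue 4 rose and 24 fell (77.8% called, background 47.6%, median -2.04), and between organoids and assembloids none rose and 24 fell (66.7% called, background 53.3%, median -2.60). At an unadjusted p under 0.05 the last comparison had 0 higher and 25 lower, and DESeq2 called 0 higher and 26 lower. The median of all genes was 0.03, 0.06 and -0.01 in these comparisons. Without tissue library 1 or 2, 13 and 15 genes of the list were called between assembloids and tissue (26.6% and 28% of all genes). With all barcodes that comparison had 20 higher and 5 lower.

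Cxcl10, a chemokine, rose in assembloids over tissue, from 0.532 and 0.704 to 29.7 and 20.1 CPM (5.76 log2, edgeR adjusted p = 2.29e-05), and organoids were at 0.954 and 1.48. Ifi27l2a rose from 1.64 and 0.758 to 34.0 and 11.9 (4.68, adjusted p = 0.00049) and was at 0.533 and 0.527 in organoids. Stroma held Cxcl10 at 46.3 and 203 CPM and Ifi27l2a at 160 and 1541, and fibroblast markers were above their level in the other epithelia, and the part of stromal RNA in these rises was not tested. Irf7, the factor that amplifies the interferon response, was at 11.7 and 11.5 in assembloids and 9.87 and 10.9 in tissue, and fell in organoids to 1.76 and 2.02 (-2.22 against tissue, adjusted p = 0.000114). Oasl1, an interferon-induced regulator of Irf7 translation, fell from 24.1 and 23.8 in assembloids to 1.05 and 2.35 in organoids (-4.04, adjusted p = 0.000124). Psmb8, a subunit of the immunoproteasome, fell in both cultures, from 22.2 and 23.1 in tissue to 2.69 and 2.77 in assembloids (-2.66, adjusted p = 0.00014) and 2.28 and 1.84 in organoids (-3.19, adjusted p = 5.38e-05). Ifi27, also interferon-induced, fell from 64.7 and 60.5 in tissue to 7.20 and 5.95 in organoids (-2.98, adjusted p = 5.26e-05).

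The genes that build the GPI anchor, which the Ly6 proteins need at the surface, were tested as well. Of 27 tested, 5 rose and 8 fell between assembloids and tissue (48.1% called, background 49.9%), 3 rose and 1 fell between organoids and tissue (14.8% called, background 47.6%), and 6 rose and 3 fell between organoids and assembloids (33.3% called, background 53.3%). The medians were -0.26, -0.01 and 0.27 (log2). Without either tissue library 5 genes were called in the first and 1 in the second comparison, where the calls over all genes fell to 26.6% and 28% in the first and 26.3% and 27.1% in the second. The second count was 9 with at most 5% mitochondrial counts (50.6% of all genes called) and 7 without organoid library 2 (42.8%). Pgap1, which removes the acyl chain of the anchor's inositol, rose in both cultures, from 21.9 and 22.6 CPM in tissue to 97.9 and 139 in assembloids and 73.5 and 143 in organoids (2.79 and 2.47, edgeR adjusted p = 0.000121 and 0.000174). Pigx, a subunit of the first mannosyltransferase, rose in both as well, with 34.7 and 36.4 in tissue, 118 and 99.6 in assembloids and 53.2 and 45.1 in organoids (2.01 and 0.73, adjusted p = 0.000524 and 0.045). Piga, part of the enzyme of the first step, rose in assembloids over tissue (1.44, adjusted p = 0.00125) and fell in organoids against assembloids (-1.46, adjusted p = 0.00111). Pigh, of the same enzyme, rose in organoids against assembloids (0.96, adjusted p = 0.00932).

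**Figure D5:**
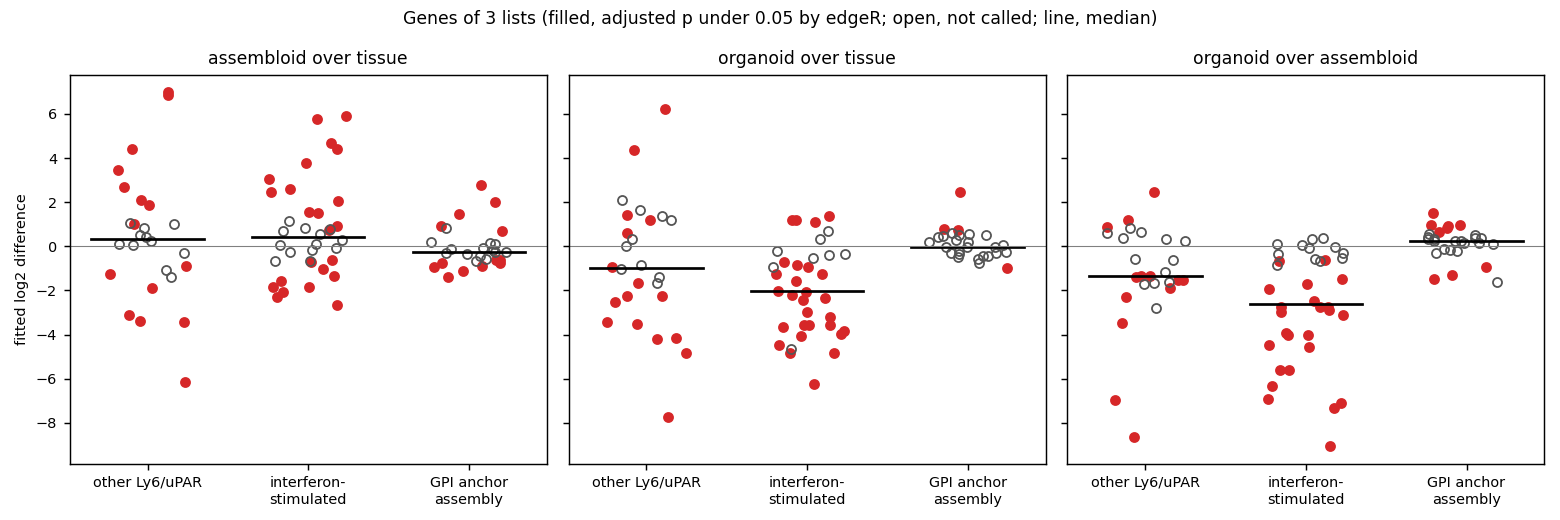
Fitted log2 differences of the genes of 3 lists in 3 comparisons, with filled points for an adjusted p under 0.05 and a line at the median. The interferon list lies mostly under 0 wherever organoids are compared, with medians of -2.04 and -2.60, and the GPI list has medians of -0.26, -0.01 and 0.27.

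The libraries of a group are given as separate samples by the labels, and no source used here ties each epithelial library to its own mouse, while the study's methods call the libraries of a group biological replicates. The p-values set the difference between groups against the spread between libraries of a group, estimated over all epithelial libraries together. That spread includes variation between mice only where the libraries of a group come from separate mice. In a sum over cells, fewer cells of a type and less RNA per cell cannot be told apart, which the class levels above address only within their gates.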

How the data were processed

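The 5 genes, the lists and the gates were chosen with earlier results of these data known. The deposited files hold raw UMI counts that the authors made from the 10x Genomics 3′ v3 kit with Cell Ranger 6.0.1 for stroma and 7.1.0 for epithelium per the file headers. The submitters' processing notes name Cell Ranger 6 and the build mm10. Whether reads in introns were counted is not given in the sources used here.

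From these counts, barcodes under 500 genes or above 10% mitochondrial counts were dropped. In the epithelial libraries, cells that passed a fibroblast or immune gate were removed for the library levels, the bins and the main fits. The classes were gated on all passing cells of at least 2000 UMIs. Shares of UMIs by class therefore include fibroblast- and immune-gated cells and leave out classes under 20 cells. Gates required at least 2 genes of a list and a minimum in UMIs per 10000, set after the marker distributions had been seen (colonocyte 30, goblet 200, enteroendocrine 50, stem 5, cycling 10, squamous 50, telocyte 3, trophocyte 20, fibroblast 20, immune 20). Cycling cells took precedence over stem cells, and classes under 20 cells are not shown. UMIs were summed per library, so cells are no replicates, and the 6 epithelial libraries were fitted together in edgeR 4.0.16 (R 4.3.3, quasi-likelihood test) after TMM and its low-count filter (19234 genes), with Benjamini-Hochberg adjustment and calls under 0.05. DESeq2 1.42.0 was an alternative. The fits were tested on simulated data. Mx1, Mx2, Lypd8l and Pigy were not used here.

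Genes outside the 5 were named by rule, as up to 10 called family genes by size, up to 3 called genes per comparison and list with a mean log2 level of at least 3, and the 3 closest profiles. Differences of log2 levels carry a pseudocount of 1 in the profile search. Positions come from GENCODE M21, which holds 99.8% of the gene identifiers. Intervals are at 95% and cover counting error only, as does the floor of 3 counts behind each value of 0.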

Additional observations from a re-analysis of the deposited data

Results flagged for a closer look

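The following contrasts between a gated class and the ungated cells of the same library ran in opposite directions in both libraries of one epithelial group and both of another, and the differences between the groups were not tested. Ly6a in goblet-gated over ungated cells was 0.34 (mean log2 ratio) in assembloids, against -1.69 in organoids and -1.79 in tissue. Cycling over ungated cells gave -0.53 in assembloids and 0.90 in tissue for Ly6a, -0.37 and 2.41 for Ly6c1, and -0.12 and 0.40 for Ly6e. The tissue value of Ly6c1 ranged from 0.87 to 3.95 between its libraries and the gate of 2 times the level took the class from 11.7 and 29.8 CPM to 7.34 and 4.94, against 5.53 and 4.18 in ungated cells. That gate put Ly6e in assembloid cycling cells at 200.1 and 237 CPM against 205 and 235 in ungated cells, so its assembloid direction then held in library 1 alone. Colonocyte-gated over ungated cells gave -0.069 in assembloids and 0.92 in tissue for Ly6c1, where the libraries gave 0.16 and 1.69 and the counting intervals of library 1, 7.13 against 6.40 CPM, overlapped. Those of both assembloid libraries overlapped too, at 183 against 192 and 172 against 180 CPM. Enteroendocrine over ungated cells gave 0.36 in assembloids and -0.44 in tissue for Ly6e. The assembloid value ranged from 0.20 to 0.52 between its libraries. In assembloid library 2, with 41 enteroendocrine cells, the counting intervals overlapped. With a gate of 2 times the level, Ly6a in tissue cycling cells was 72.6 and 70.2 CPM in place of 106 and 171 and lay below the ungated cells, which were then at 97.9 and 109, so the tissue direction of this contrast turned. The shares of thinned cells with Ly6a, 5.71% and 7.76% of cycling against 9.14% and 13.0% of ungated cells, also ran against it.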

How the results depend on the processing

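With the replicate number as a block the counts stayed within 1.5 times of those given, with 15, 16 and 12 family genes called in the comparisons of assembloids with tissue, organoids with tissue and organoids with assembloids, 23, 28 and 23 interferon genes and 9, 3 and 9 GPI genes. The deviations of same-numbered libraries correlated at -0.02, 0.05 and -0.02 over all genes tested. With so few libraries per group, this does not settle whether the numbers pair the libraries. DESeq2, no filter on low counts, all passing cells and at least 1000 genes also left each of the 9 counts within 1.5 times. At most 5% mitochondrial counts gave 9 called GPI genes between organoids and tissue in place of 4. Keeping all barcodes left the 9 counts within 1.5 times but split the interferon genes between assembloids and tissue as 20 higher and 5 lower in place of 13 and 10, and the family genes as 11 and 6 in place of 8 and 7. With at most 5% mitochondrial counts that family split was 4 and 7.

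Leaving out 1 library at a time gave, in that order, 8 to 13, 11 to 18 and 10 to 16 family genes, 13 to 25, 19 to 30 and 21 to 23 interferon genes, and 5 to 16, 1 to 7 and 5 to 11 GPI genes. Without tissue library 1 or 2, 9 and 8 family genes, 13 and 15 interferon genes and 5 and 5 GPI genes passed in the comparison of assembloids with tissue, and 1 and 1 GPI genes between organoids and tissue. Without assembloid library 1 or 2, 8 and 8 GPI genes did. Without either organoid library 1 interferon gene was higher in organoids than in assembloids, in place of 0. GPI calls were 7 between organoids and tissue without organoid library 2, and 5 between organoids and assembloids without organoid library 1. The lone library is then assumed to vary like the others.

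For the members the same ranges were 2.67 to 2.90, 3.01 to 3.64 and 0.23 to 0.86 (log2) for Ly6a, 5.47 to 5.77, 6.25 to 6.76 and 0.65 to 1.15 for Ly6c1, 8.98 to 9.42, 4.17 to 4.69 and -4.99 to -4.53 for Ly6d, and -0.18 to -0.09, -0.16 to 0.13 and -0.01 to 0.28 for Ly6e. Ly6c2 between organoids and assembloids ranged from 0.36 to 0.76, and it has no value against tissue. With all barcodes the values were 3.62 for Ly6a between organoids and tissue, and in the comparisons with tissue 5.98 and 6.94 for Ly6c1, 9.81 and 5.10 for Ly6d, and 0.32 and 0.45 for Ly6e, whose direction is thus not settled. With at most 5% mitochondrial counts they were 3.10 and 3.66 for Ly6a, 5.14 and 6.07 for Ly6c1, 8.20 and 3.49 for Ly6d and -0.58 and -0.46 for Ly6e. With all passing cells, organoids against assembloids gave 1.06 for Ly6c1 and -4.59 for Ly6d. The cause was not tested.

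The stricter gates moved 116 of 250 class levels outside their counting interval, and other depths moved most shares of cells. The removal of squamous-gated cells was chosen after seeing the data. Depth limits Ly6c2 throughout, Ly6d in tissue, and the classes with few cells.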
